A study of Mus musculus with 10 samples.

Results

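The genes described here are 10 response genes of the ERK pathway from 3 families, the transcription factors Egr1, Egr2 and Egr3, the phosphatases Dusp1, Dusp2, Dusp4, Dusp5 and Dusp6, and the inhibitors Spry1 and Spry2. They are 10 of the 18194 genes that the arrays name, and were taken by symbol, with all 13 of their probe sets. The set was chosen with earlier results of these data known. Where a gene had more than 1 probe set, the brightest by its mean over the 10 arrays gave the gene's value. RNA was measured on Affymetrix arrays in natural killer cells (NKC) from spleens of ICR mice aged 6 weeks, cultured for 7 days. The groups were Runx3-/- (KO) NKC in 1000 u/ml human IL-2 (3 arrays), Runx3+/+ (WT) NKC in the same IL-2 (3 arrays), KO NKC in mouse IL-15 (2 arrays) and WT NKC in mouse IL-15 (2 arrays). Each sample came from its own mouse, and KO mice lacked Runx3 throughout the body.

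ERK is the last kinase of a cascade that runs from Ras through Raf and MEK and that is switched on by growth factors, antigen receptors and cytokines. IL-2 and IL-15 share receptor chains that feed this cascade in lymphocytes. Active ERK phosphorylates ETS-family partners of the factor SRF, which binds CArG boxes in promoters and starts the transcription of immediate early genes such as the EGR factors. The same signal induces its own brakes: DUSP phosphatases remove phosphate from ERK and related kinases, and Sprouty proteins act further up, between receptor and Raf. In T cells, Egr2 and Egr3 are also known to restrain activation.

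In IL-2, Egr2 and Egr3 differed between KO and WT NKC in the opposite direction to the phosphatase Dusp5. Egr2 and Egr3 were higher in KO than in WT NKC, by 4.2-fold and 2.4-fold, and Dusp5, which inactivates ERK in the nucleus, was 2.9-fold lower. These calls were lost without pair 1 of the IL-2 arrays and also without pair 2. The call of Dusp5 was lost without pair 3 as well. Each of these calls was also lost with any single IL-15 array left out, and with no filter on low values. Egr1 read lower in KO (-0.83 log2) and was not called. Spry2 was lower in KO in each of the 5 pairs over both cytokines. In IL-15, no member passed the test between KO and WT NKC, where 1.3% of all tested genes did. Dusp1, Dusp2, Dusp4 and Dusp6 were lower in IL-15 than in IL-2 in WT NKC. In that comparison sex, culture and cytokine cannot be told apart, and the p-values are too small by an unknown amount.

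The promoters of the members that moved furthest apart in IL-2 are shown first, because both hold a CArG box. Promoters from RefSeq (GRCm38.p6) were read for 7 of the 10 members, as the 250 bases before the annotated start. Those of Egr1, Egr3 and Dusp4 were not read, so nothing is said here of their motifs. Egr2 has 5 annotated starts, and 4 of its windows held a CArG box. The windows from bases 67537619 (shown), 67537620 and 67537680 overlap and hold the same box, CCATATATGG. The window from base 67537316 held a different box, CCTTTTTTGG. Capitals mark the CArG boxes and, after them, the CRE core motif (TGACGT on either strand) that CREB and ATF factors bind.
Egr2 chr10:67537619-67537868 (+): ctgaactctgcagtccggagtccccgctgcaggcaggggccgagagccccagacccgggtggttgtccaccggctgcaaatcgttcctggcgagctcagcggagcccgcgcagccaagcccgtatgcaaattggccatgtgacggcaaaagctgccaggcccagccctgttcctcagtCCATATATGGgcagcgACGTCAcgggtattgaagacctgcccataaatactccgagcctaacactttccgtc
Dusp5 chr19:53528895-53529144 (+): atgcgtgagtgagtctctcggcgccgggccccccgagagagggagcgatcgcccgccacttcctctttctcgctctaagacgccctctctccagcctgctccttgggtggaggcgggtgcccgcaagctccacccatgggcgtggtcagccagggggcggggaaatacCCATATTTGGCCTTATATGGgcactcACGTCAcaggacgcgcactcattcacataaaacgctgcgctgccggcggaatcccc
The Egr2 window held 1 CArG box and the Dusp5 window 2 adjacent boxes. In both windows shown, a box began 72 bases before the start (position -72) and the CRE core at -56. The match in position holds for the Egr2 start shown. In the Egr2 window from base 67537620 the same box and core lay at -73 and -57. In that from base 67537680 they lay at -133 and -117. The Egr2 windows from bases 67535249 and 67537316 held no CRE core. A CArG box occurred in 1.47% of all 32851 promoter windows of this length, and the CRE core in 6.47%. The Dusp1 window held the CRE core and no CArG box, and the windows of Dusp2, Dusp6, Spry1 and Spry2 held neither, nor the AP-1 motif TGANTCA, the ETS motif CCGGAA or the RUNX motif, searched as TGTGGT or as TGTGGC or, with C in the third place, as TGCGGT or as TGCGGC. Another Egr2 window, from base 67537316 and not shown, held the RUNX motif (TGCGGT at -216) and the ETS motif at -131, -129 and -48. No other member window that was read held either motif. The AP-1, ETS and RUNX motifs occurred in 6.75%, 12% and 38% of all windows on either strand, and a match is a run of letters, not a site shown to be bound.

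The arrays carry features that bear on every value below. For all 45101 probe sets, the sum of the KO and the WT array of the same number was the same within a cytokine to within 0.00014 on the log2 scale. Differences between pairs had thus been removed before deposit, KO and WT arrays mirror each other, and tests were made with the pair as a block. KO and WT arrays of a cytokine thus lie apart whenever all its pairs share a direction, and only then. Lack of overlap adds nothing to the agreement of the pairs. Runx3 itself had a mean log2 signal of 11.07 in KO against 11.65 in WT NKC in IL-2 (adjusted p = 0.254, limma). In IL-15 it was 11.38 in KO against 12.48 in WT NKC (adjusted p = 0.293, limma), and whether its probes lie in the deleted sequence is unknown, so this checks no label. All 9 NKC markers had a mean of at least log2 5 in every group, and 0 of 4 B-cell markers did. Of 8 T-cell markers, 4 reached it in each group, while Cd4, Cd8a, Cd8b1 and Cd5 did not. The 4 tested T-cell markers had a median KO minus WT difference of 1.02 log2 in IL-2, with 1 called, the adaptor gene Lat (10.88 in KO against 9.71 in WT NKC), and of 0.09 log2 in IL-15 with 0 called by limma. Of 7 granulocyte and mast cell markers the mast cell protease gene Cpa3 was tested, and it was called lower in KO in IL-15 (4.21 in KO against 7.24 in WT NKC). Of 5 macrophage markers, 3 reached it in KO and 4 in WT NKC in IL-2, and 3 in KO and 1 in WT NKC in IL-15. Their summed level ranged on the log2 scale over 8.58 to 10.56 in KO and 7.94 to 10.58 in WT NKC in IL-2, and over 7.70 to 8.93 in KO and 8.71 to 9.43 in WT NKC in IL-15. In such bulk samples fewer cells of a type and less RNA per cell cannot be told apart.

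**Figure D1:**
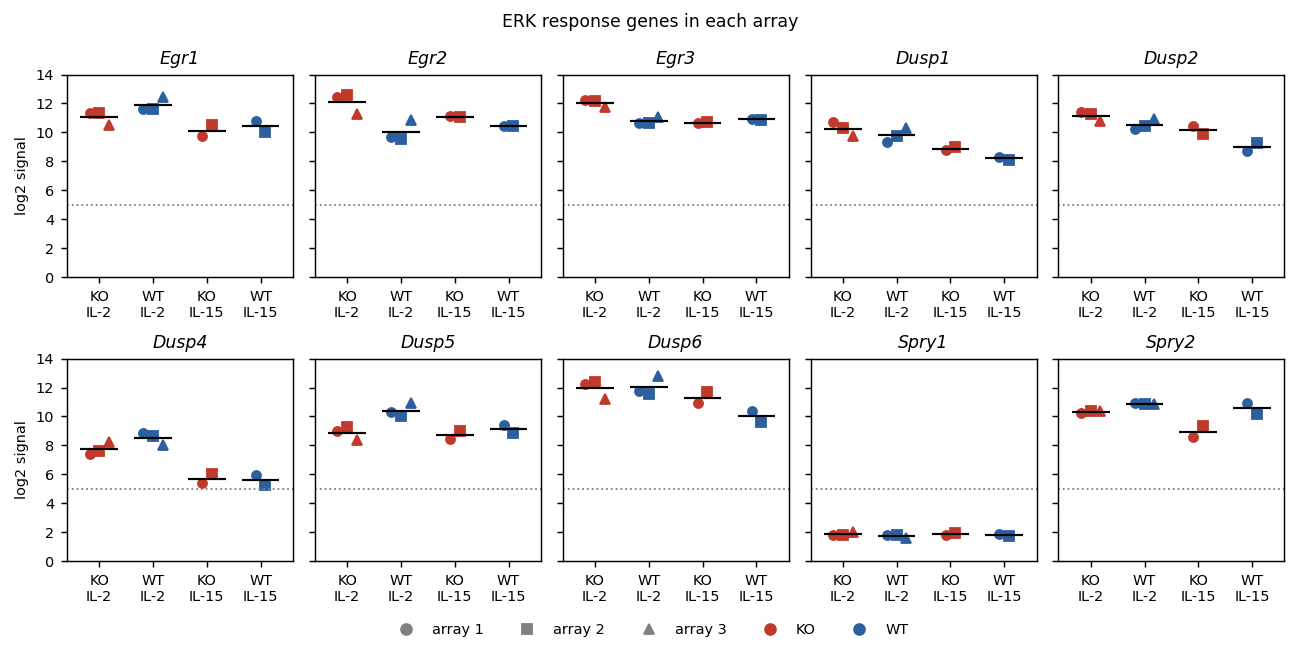
Log2 signal (vertical axis) of the 10 genes in each array of the 4 groups, with KO in red, WT in blue, the array number as the symbol, the group mean as a black line and log2 5 as a dotted line. Egr2 and Egr3 lie higher in every KO than in every WT array in IL-2, Dusp5 lies lower, and Spry1 stays under the dotted line in all 10 arrays.

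A gene was tested where its log2 signal reached 5 in at least 2 arrays. This held for 9 of the 10 members, and those 9 were above 5 in all 10 arrays. The exception was Spry1, a Sprouty inhibitor of receptor signalling upstream of Ras, whose log2 signal lay between 1.62 and 2.03 in all arrays. A gene was called at a limma adjusted p under 0.05 over all 9391 tested genes and a change of at least 1.5-fold.

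Among the transcription factors, Egr2 was the member furthest above WT in IL-2. Its log2 signal was 12.43, 12.59 and 11.26 in KO arrays 1, 2 and 3, against 9.68, 9.52 and 10.86 in WT arrays 1, 2 and 3. Every KO array lay above every WT array, with arrays 3 closest to each other. KO exceeded WT by 2.07 ± 1.46 log2 (SD, 3 pairs), with a 95% interval of 0.86 to 3.28, and Egr2 rose (adjusted p = 0.0338, limma). A second Egr2 probe set read 12.65, 12.66 and 11.29 in KO and 9.37, 9.37 and 10.73 in WT arrays, a difference of 2.38 log2 (adjusted p = 0.0289, limma over 15758 single probe sets).

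Egr3, which shares its DNA-binding zinc fingers with Egr1 and Egr2, had log2 signals of 12.23, 12.18 and 11.78 in KO arrays 1, 2 and 3 in IL-2. In WT arrays 1, 2 and 3 it had 10.63, 10.68 and 11.08. The groups did not overlap, and the pairs differed by 1.6, 1.5 and 0.7 log2. Egr3 rose by 1.26 ± 0.49 log2 (SD, 3 pairs; 95% interval 0.61 to 1.92; adjusted p = 0.0228, limma). Its other probe set stayed at 1 to 1.07 in all arrays and was not tested.

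Egr1, a common marker of a recent ERK signal, read lower in KO NKC in IL-2 and was not called. Its log2 signal was 11.32, 11.32 and 10.52 in KO against 11.61, 11.62 and 12.42 in WT arrays. KO lay below WT in 3 of 3 pairs, so that the mirrored arrays did not overlap. The difference of -0.83 ± 0.92 log2 (SD, 3 pairs) had an interval of -1.89 to 0.23 (adjusted p = 0.227, limma). In the third pair it was -1.89, against -0.29 and -0.30 in the other pairs.

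Of the phosphatases, Dusp5 was called in IL-2. This nuclear phosphatase is specific for ERK and is itself induced by ERK. Its log2 signal was 9, 9.27 and 8.35 in KO arrays 1, 2 and 3 and 10.28, 10.01 and 10.94 in WT arrays 1, 2 and 3. All KO arrays lay below all WT arrays. Dusp5 fell by 1.54 ± 0.95 log2 (SD, 3 pairs; adjusted p = 0.0437, limma), with an interval of -2.52 to -0.56.

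The other phosphatases had overlapping KO and WT arrays in IL-2, and none was called. Dusp1, a nuclear phosphatase that also acts on p38 and JNK, ranged over 9.78 to 10.72 in KO and 9.35 to 10.29 in WT NKC (0.45 ± 0.94 log2, adjusted p = 0.427, limma). Dusp2, a nuclear phosphatase of activated lymphocytes, ranged over 10.78 to 11.43 in KO and 10.25 to 10.90 in WT NKC (0.62 ± 0.67 log2, adjusted p = 0.252, limma). For both, pairs 1 and 2 were higher in KO and pair 3 was lower. Dusp4, another nuclear phosphatase, ranged over 7.41 to 8.25 in KO and 8.02 to 8.85 in WT NKC (-0.76 ± 0.88 log2, adjusted p = 0.235, limma). Dusp6, the cytoplasmic ERK phosphatase, differed by 0.47, 0.83 and -1.62 log2 in pairs 1, 2 and 3, a mean of -0.11 ± 1.32 (interval -1.36 to 1.15, adjusted p = 0.906, limma). Its pairs disagreed in direction.

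Spry2, the Sprouty protein with signal in these cells, varied least between pairs in IL-2. Its log2 signal was 10.26, 10.36 and 10.37 in KO against 10.96, 10.86 and 10.85 in WT arrays, and all KO arrays lay below all WT arrays. The difference of -0.56 ± 0.12 log2 (SD, 3 pairs) was not called (adjusted p = 0.258, limma). Its other probe set read 2.51 to 2.85 in all arrays and was not tested.

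In IL-2, 3 of the 9 tested members were thus called, against 19.7% of all tested genes. By direction, 2 were higher in KO, against 10.5% of all genes, and 1 was lower, against 9.17%. KO and WT arrays did not overlap in 5 of the 9 members, against 54.4% of all genes. The median difference of the 9 members was -0.11 log2, and that of all tested genes was 0.11 log2.

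The third pair stood apart. It gave the lowest KO minus WT difference of the 3 pairs in 7 of the 9 members (77.8%), against 3812 of all 9391 tested genes (40.6%). In KO array 3 the macrophage genes Cd14 and Csf1r read 2.29 and 4.56 log2, below 3.90 and 5.20 (Cd14) and 6.16 and 7.87 (Csf1r) in KO arrays 1 and 2. In WT array 3 they read 9.19 and 9.39, above 7.58 and 6.27 (Cd14) and 7.79 and 6.08 (Csf1r) in WT arrays 1 and 2. Same-numbered arrays mirror each other, so each WT order given here restates the KO order. Lyz2 and Adgre1 had the same order. In KO array 3 they read 6.29 and 4.52, below 8.18 and 9.43 (Lyz2) and 5.31 and 5.02 (Adgre1) in KO arrays 1 and 2. In WT array 3 they read 6.74 and 5.24, above 4.86 and 3.61 (Lyz2) and 4.45 and 4.74 (Adgre1) in WT arrays 1 and 2. Cd68 did not follow, with 7.99 in KO array 3 between 7.30 and 9.03 in KO arrays 1 and 2, and 7.00 in WT array 3 between 7.68 and 5.96 in WT arrays 1 and 2. Of the 5 macrophage markers 1 was called in IL-2, Cd14, lower in KO (-3.88 ± 2.92 log2, adjusted p = 0.0494, limma), and the mean levels in KO against WT NKC were 6.19 against 7.75 for Csf1r, 7.97 against 5.07 for Lyz2, 8.10 against 6.88 for Cd68 and 4.95 against 4.81 for Adgre1. The part of these markers in the results was not tested. Without pair 3 the difference was 2.90 log2 for Egr2 (adjusted p = 0.00975), 1.55 for Egr3 (adjusted p = 0.0248) and -1.01 for Dusp5 (adjusted p = 0.12), all by limma, so that the call of Dusp5 was lost. Without pair 1 the differences were 1.73, 1.1 and -1.67 for Egr2, Egr3 and Dusp5 (adjusted p = 0.176, 0.118 and 0.141), and without pair 2 they were 1.57, 1.15 and -1.94 (adjusted p = 0.14, 0.0928 and 0.0558), again by limma. Leaving out any single IL-15 array, which lowers the degrees of freedom of the shared spread, gave adjusted p of 0.0501 to 0.0599.

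**Figure D2:**
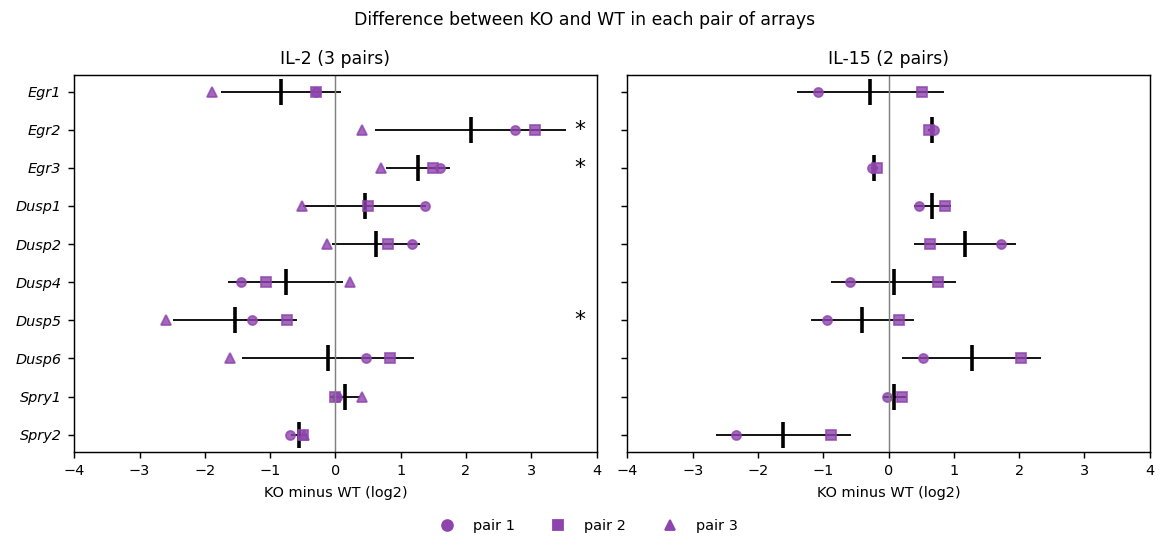
KO minus WT difference in log2 signal (horizontal axis) of each pair of arrays for the 10 genes, in IL-2 on the left and IL-15 on the right, with the mean as a vertical bar and the SD over pairs as a line. Stars mark the called genes Egr2, Egr3 and Dusp5, and the triangle of pair 3 lies furthest left for 7 of the 9 tested members in IL-2.

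In IL-15, 0 of the 9 tested members were called between KO and WT NKC by limma, where 1.3% of all tested genes were called (0.458% higher and 0.841% lower in KO). Of the 122 genes called, 43 were higher in KO, against 44 of 92 after quantile normalization. At an unadjusted p under 0.05 and 1.5-fold, 2 members passed, and the same number was called without the block. These were Spry2 and Dusp2. KO and WT arrays did not overlap in 6 of the 9 members, against 64.6% of all genes. The median difference was 0.08 log2 for the members and -0.01 log2 for all genes.

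Spry2 had log2 signals of 8.59 and 9.32 in KO against 10.93 and 10.20 in WT arrays in IL-15. Both KO arrays lay below both WT arrays. The difference of -1.61 ± 1.03 log2 (SD, 2 pairs) had an interval of -2.55 to -0.67 (adjusted p = 0.124, limma).

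Dusp2 had 10.44 and 9.89 in KO against 8.72 and 9.27 in WT arrays, without overlap, a difference of 1.17 ± 0.77 log2 (SD, 2 pairs; adjusted p = 0.293, limma). Dusp6 had 10.92 and 11.67 in KO against 10.40 and 9.65 in WT arrays, also without overlap, a difference of 1.27 ± 1.06 log2 (adjusted p = 0.469, limma). Dusp1 had 8.77 and 8.97 in KO against 8.30 and 8.10 in WT arrays (0.67 ± 0.28 log2, adjusted p = 0.619, limma). These phosphatases read higher in KO in both pairs, and none passed the test.

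Egr2 had 11.12 and 11.08 in KO against 10.43 and 10.47 in WT arrays in IL-15, a difference of 0.66 ± 0.05 log2 (SD, 2 pairs; adjusted p = 0.75, limma). Egr3 had 10.67 and 10.70 in KO against 10.93 and 10.89 in WT arrays (-0.22 ± 0.05 log2, adjusted p = 0.869, limma). The members whose pairs disagreed in direction were Egr1 (-1.08 and 0.51 log2), Dusp4 (-0.59 and 0.76 log2) and Dusp5 (-0.95 and 0.16 log2).

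Whether the effect of Runx3 loss differed between the cytokines was tested directly. The difference between the effects, IL-15 minus IL-2, was called by limma for 0 of the 9 members, and for 0% of all tested genes. At an unadjusted p under 0.05 and 1.5-fold, and also without the block, 1 member passed, Egr3. Its KO effect was -0.22 log2 in IL-15 and 1.26 log2 in IL-2, a difference of -1.49 with an interval of -2.52 to -0.45 (adjusted p = 0.313, limma). The differences for Egr2 (-1.41, adjusted p = 0.527) and Dusp5 (1.14, adjusted p = 0.528) missed the threshold as well by limma. The calls in IL-2 and their lack in IL-15 are therefore not shown to differ.

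The effect over both cytokines was the mean of the IL-2 and IL-15 effects with equal weight, which is not the mean of the 5 pairs. Over both cytokines, 1 of the 9 members was called, against 17.2% of all tested genes (8.82% higher and 8.36% lower). Spry2 fell in KO NKC by 1.08 log2, or 2.12-fold, with an interval of -1.69 to -0.48 (adjusted p = 0.0327, limma). It was lower in 5 of 5 pairs, whose differences had an SD of 0.78 log2. Without pair 1 of IL-15 the difference was -0.72 log2 (adjusted p = 0.208, limma), without pair 2 of IL-15 it was -1.45 (adjusted p = 0.0369, limma), and with 1 IL-2 pair left out the adjusted p was 0.0569 to 0.0976. Egr2 was also higher in KO in 5 of 5 pairs, with an equally weighted effect of 1.36 log2, and was not called (adjusted p = 0.0631, limma).

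The cytokines were then compared within each genotype. IL-15 and IL-2 cultures differed in more than the cytokine. Xist, which is expressed in female cells, read 14.28 to 14.66 log2 in the IL-15 arrays and 4.64 to 5.37 in the IL-2 arrays, while the Y-linked gene Eif2s3y read 2.34 to 2.43 in the IL-15 arrays and 7.31 to 9.17 in the IL-2 arrays. Sex, culture and cytokine cannot be told apart here. Because pair differences had been removed, the p-values of these comparisons leave out that spread and are too small by an unknown amount.

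In KO NKC, 3 of the 9 members were lower in IL-15 than in IL-2 and 0 higher, against 9.37% of all tested genes lower and 14% higher (23.3% in all). IL-15 and IL-2 arrays did not overlap in 6 of the 9 members, against 68.3% of all genes. The 3 called members were Dusp4, Egr3 and Spry2. Dusp4 read 5.37 and 6.05 log2 in IL-15 and 7.41, 7.60 and 8.25 in IL-2, and fell by 2.04 log2, or 4.11-fold (adjusted p = 0.0243, limma). Egr3 read 10.67 and 10.70 in IL-15 and 11.78 to 12.23 in IL-2, and fell by 1.38 log2 (adjusted p = 0.0227, limma). Spry2 read 8.59 and 9.32 in IL-15 and 10.26 to 10.37 in IL-2, and fell by 1.37 log2 (adjusted p = 0.0369, limma). For all 3, the IL-15 arrays lay below the IL-2 arrays without overlap. Leaving out KO array 1 of IL-15 gave -1.36 log2 for Dusp4, -1.34 for Egr3 and -0.65 for Spry2 (adjusted p = 0.297, 0.219 and 0.473, limma), and leaving out KO array 2 of IL-15 gave -2.72, -1.41 and -2.1 (adjusted p = 0.113, 0.207 and 0.103, limma).

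In WT NKC, 4 of the 9 members were lower in IL-15 than in IL-2 and 0 higher, against 9.85% of all tested genes lower and 16.1% higher (25.9% in all). Again the arrays did not overlap in 6 of the 9 members, against 70% of all genes. The median difference of all tested genes was -0.08 log2 in KO and 0.18 log2 in WT NKC, and 1508 of the 2433 called genes in WT were higher in IL-15, against 1289 of 2605 after centring each array on its median and 1329 of 2671 after quantile normalization. All were phosphatases. Dusp4 read 5.97 and 5.29 log2 in IL-15 and 8.85, 8.67 and 8.02 in IL-2, and fell by 2.88 log2, or 7.38-fold (adjusted p = 0.00953, limma). Dusp6 read 10.40 and 9.65 in IL-15 and 11.76, 11.58 and 12.81 in IL-2, and fell by 2.02 log2, or 4.07-fold (adjusted p = 0.0466, limma). Dusp1 fell by 1.61 log2 (adjusted p = 0.0345, limma) and Dusp2 by 1.53 log2 (adjusted p = 0.033, limma). In each of the 4 the IL-15 arrays lay below the IL-2 arrays. Without WT array 1 of IL-15 the differences were -3.56 log2 for Dusp4, -2.78 for Dusp6, -1.81 for Dusp1 and -0.99 for Dusp2 (adjusted p = 0.065, 0.141, 0.194 and 0.364, limma). Without WT array 2 of IL-15 they were -2.21, -1.27, -1.41 and -2.08 in the same order (adjusted p = 0.149, 0.433, 0.293 and 0.134, limma).

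The remaining members were not called between cytokines in WT NKC. Dusp5 differed by -1.28 log2 (adjusted p = 0.0814, limma) and Egr1 by -1.48 log2 (adjusted p = 0.0683, limma). Egr2 and Egr3 differed by -0.99 and -1.38 log2 in KO NKC, and by 0.43 and 0.11 log2 in WT NKC. The sign for Egr3 in WT turned with the scaling of the arrays, to -0.09 after centring each array on its median and to -0.15 after quantile normalization. Whether the cytokine difference itself differed between genotypes is the same test as that of the KO effects between cytokines above, in which no member was called.

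**Figure D3:**
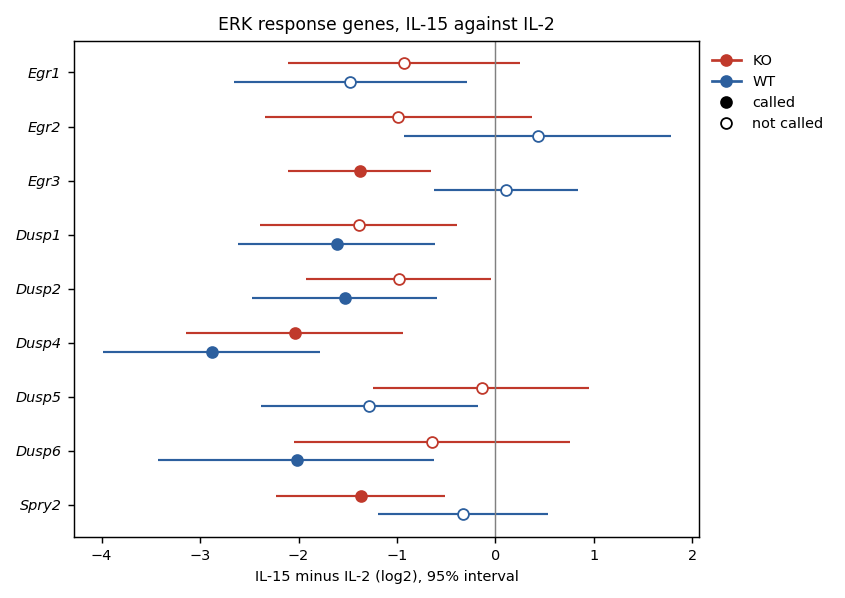
IL-15 minus IL-2 difference in log2 signal (horizontal axis) of the 9 tested members in KO (red) and WT (blue) NKC, with 95% intervals from limma and filled points for called genes. All 9 points in KO lie left of 0, and Dusp4 lies furthest left in both genotypes.

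The order of the 4 group means differed between members. Dusp4 had 7.75 log2 in KO and 8.51 in WT NKC in IL-2, and 5.71 in KO and 5.63 in WT NKC in IL-15, so that the cytokines separated and the genotypes overlapped within each. Dusp6 had 11.94 in KO and 12.05 in WT in IL-2, and 11.30 in KO and 10.02 in WT in IL-15. Egr2 was highest in KO in IL-2 (12.09), followed by KO in IL-15 (11.10), WT in IL-15 (10.45) and WT in IL-2 (10.02). The Egr2 means of WT in IL-15 and WT in IL-2 differed by less than the spread of the 3 WT arrays in IL-2. Spry2 was lowest in KO in IL-15 (8.96), and the other groups lay at 10.33 (KO in IL-2), 10.56 (WT in IL-15) and 10.89 (WT in IL-2).

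The highest correlations between members across the 10 arrays are given as a description, because the arrays share groups and mirrored pairs. Dusp1 and Dusp2 correlated at r = 0.92, Dusp1 and Dusp6 at r = 0.88, and Dusp2 and Dusp6 at r = 0.8. Egr1 and Dusp5 correlated at r = 0.88, and Egr2 and Egr3 at r = 0.85. Egr2 and Dusp5, whose promoter windows are shown above, correlated at r = -0.43. Among genes outside the list, the profiles most like Egr3 were Tmem134 (r = 0.986), Ppm1d (0.983) and Tmem161a (0.978). Those most like Spry2 were Phactr2 (0.976), Commd10 (0.976) and Asns (0.964), and those most like Dusp6 were E130308A19Rik (0.983), Mier2 (0.981) and Gtf2h3 (0.978).

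Other genes of the pathway were read from 6 lists with 104 symbols, of which 82 were tested. In IL-2, 5 of the 82 were higher in KO and 17 lower, with a median difference of -0.26 log2, against the shares of 10.5% and 9.17% of all genes given above. Without pair 1 in IL-2 this count of 22 was 5, without pair 2 it was 14 and without pair 3 it was 15. With each of the 10 arrays left out in turn, 2 of the 22 calls held every time (Dusp9 and Nfil3), and 3 were lost every time (Nab1, Rasa3 and Srf, with adjusted p of 0.0542 to 0.168 by limma). In IL-15, 0 were higher and 1 lower by limma, 18 passed an unadjusted p under 0.05 and 1.5-fold, and 14 were called without the block. The gene called in IL-15 was Lag3, an inhibitory receptor of lymphocytes, which differed by -3.86 ± 1.01 log2 (at least 1.23-fold lower in KO, since KO lay under log2 5; adjusted p = 0.0435, limma), a call that was lost with any single IL-15 array left out (adjusted p = 0.4 without pair 1 and 0.123 without pair 2) and without pair 1 or pair 2 of IL-2.

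Among 5 tested relatives and partners of the EGR factors, KO NKC in IL-2 had lower levels of 3 and higher levels of 0, against 9.17% and 10.5% of all tested genes. Nr4a2 and Nr4a3, orphan nuclear receptors that are immediate early genes themselves, differed by -2.66 ± 0.95 log2 (adjusted p = 0.0108, limma) and -1.68 ± 1 log2 (adjusted p = 0.0288, limma). Nr4a1 of the same family read higher in KO in 3 of 3 pairs (1.79 ± 1.67 log2) and was not called (adjusted p = 0.0755, limma). Nab1, a corepressor that binds EGR factors, differed by -1.09 ± 0.32 log2 (adjusted p = 0.0263, limma). Of 16 tested genes described as EGR targets in lymphocytes, 5 fell and 1 rose, against the same shares. Those that fell were Ndrg1 (-3.45 log2), the ubiquitin ligases Rnf128 (-3.08) and Cblb (-1.71), which restrain T cells, the factor Nfil3 (-2.59) and the costimulatory receptor Tnfrsf9 (-2.34). The gene that rose was Tbx21 (1.42 log2), which encodes the NKC factor T-bet.

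Among 13 further DUSP genes that were tested, KO NKC in IL-2 had lower levels of 3 and higher levels of 1, against 9.17% and 10.5% of all tested genes. Dusp14 differed by -4.38 ± 1.88 log2 (adjusted p = 0.0125, limma) and Dusp16, which acts on JNK and p38, by -1.71 ± 0.52 log2 (adjusted p = 0.0387, limma). Dusp9, a cytoplasmic ERK phosphatase, fell at least 1.56-fold and Dusp7, another, rose at least 5.55-fold, both against log2 5 because the lower group lay under it. Of 3 other Sprouty and Spred genes tested, 0 were called by limma, and 1 passed an unadjusted p under 0.05 and 1.5-fold.

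In the cascade itself, 23 genes were tested, of which 2 rose and 2 fell in IL-2, no more than the 10.5% and 9.17% of all tested genes. Rasal3 (1.62 log2) and Rasa3 (0.95 log2), which encode GTPase-activating proteins that switch off Ras family proteins, rose, while Rasa2 (-2.13 log2), of the same kind, and the kinase Braf (-1.80 log2) fell. Of 22 other ERK-induced genes, 4 fell and 1 rose, against the shares of 9.17% and 10.5%. Ier3 (-3.05 log2), Phlda1 (-2.23), the growth factor Hbegf (-1.33) and the AP-1 subunit Fosl1 (at least 2.95-fold lower) fell, and Srf (1.04 log2), whose product binds the CArG boxes shown above, rose. The third pair gave the lowest difference in 14 of these 22 genes (63.6%), against 40.6% of all tested genes.

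**Figure D4:**
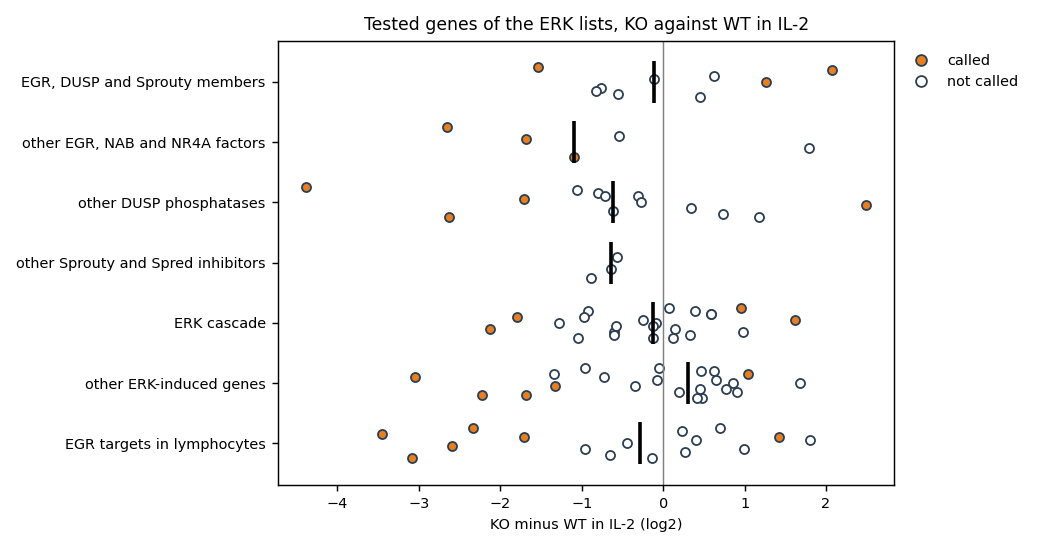
KO minus WT difference in IL-2 in log2 signal (horizontal axis) for the tested genes of the members and of 6 further lists, with called genes filled, medians as black bars and points spread vertically for legibility. The 3 called genes among relatives and partners of the EGR factors lie left of 0, opposite to Egr2 and Egr3 in the top line. Nr4a1 of the same list lies right of 0 and was not called.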

How the data were processed

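RNA of 10 NKC samples was hybridised to Affymetrix mouse arrays. The values deposited by the authors are signals on a log2 scale for every probe set, made with GCRMA in Partek (versions and genome build not given in the sources used here), and they were used without further scaling. Per the labels and methods, NKC were enriched by negative selection and sorted for DX5. Of 45101 probe sets, 34958 had 1 gene symbol in the platform's table, 932 had several and 9211 were not listed there. The members and lists were chosen with earlier results of these data known.

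A gene was represented by its brightest probe set with 1 symbol and tested where it reached log2 5 in at least 2 arrays (9391 genes). The 10 arrays were fitted together in limma 3.58.1 (lmFit and eBayes, R 4.3.3), with the numbered KO and WT pair as a block, which left 3 residual degrees of freedom. The pairing follows the numbers in the sample titles and was checked by the sums of same-numbered arrays, which were equal to within 0.00014 log2, while crossed sums had a median difference of 0.193. A call needed 1.5-fold or more and, after Benjamini-Hochberg adjustment over all tested genes, p under 0.05. SDs are over pairs. Folds against a group under log2 5 are lower limits, taken against log2 5. The fit was tested on simulated data. Genes named were all members, called genes of the lists (at most 6 per list and comparison), the 3 genes of highest correlation with the brightest member of each family, and Runx3. Macrophage and sex-linked genes were chosen after their values were seen, from a list of markers. Promoter windows were read from RefSeq (GRCm38.p6). The number of arrays limits the precision. Alternatives covered the block, filters, scaling, probe sets, prior, thresholds and each left-out array.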

Additional observations from a re-analysis of the deposited data

How the results depend on the processing

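In the order IL-2, IL-15, both cytokines, difference between cytokines, IL-15 against IL-2 in KO and the same in WT, limma with the block called 3, 0, 1, 0, 3 and 4 members. Without the replicate block it called 3, 2, 4, 1, 5 and 6, and the same numbers at the study's thresholds (unadjusted p). Pairing was taken from the sample numbers and the constant sums, so the block stands in every result of the report. With no filter on low values 0 members were called in all 6 comparisons, with adjusted p of 0.0508 to 0.165 for the lost calls (0.148 for Egr2, 0.0551 for Egr3, 0.154 for Dusp5 and 0.0986 for Spry2 over both cytokines). With an intensity trend and robust prior, 2 members were called over both cytokines (Egr2 was added), and Dusp1 in KO and Egr1 in WT were added between cytokines. A filter at log2 6, single probe sets and means of probe sets left all 54 member results on their side of the threshold. Of the 54, the 2 scalings turned Egr3 in WT between cytokines, to -0.09 (centred arrays) and -0.15 (quantile), and each scaling added the calls of Dusp1 in KO and Egr1 in WT between cytokines. With 1 array left out, the members called ranged over 0 to 2, 0 to 0, 0 to 2, 0 to 0, 0 to 5 and 0 to 6 in the order above. Log2 differences that changed sign ranged over 0 to 0.93 (Dusp1) and -0.58 to 0.65 (Dusp6) for KO against WT in IL-2, over -1.08 to 0.51 (Egr1), -0.59 to 0.76 (Dusp4) and -0.95 to 0.16 (Dusp5) in IL-15, over -0.25 to 1.34 (Egr1) and -0.26 to 0.67 (Dusp1) for the difference, over -0.7 to 0.41 (Dusp5) and -1.4 to 0.11 (Dusp6) between cytokines in KO, and over -0.07 to 1.26 (Egr2), -0.06 to 0.39 (Egr3) and -1.05 to 0.4 (Spry2) between cytokines in WT. Of the 23 calls in the lists, 17 were lost with no filter. Over all genes, calls in the order above numbered 1851, 122, 1613, 0, 2191 and 2433 with the block, 3803, 1321, 2889, 1157, 4326 and 4512 without it, 3391, 1269, 2794, 1106, 3657 and 3842 at the study's thresholds, and 842, 0, 642, 0, 1126 and 1333 with no filter. Single probe sets gave 2830 in IL-2, 3926 between cytokines in KO and 4280 in WT, and the difference between cytokines had 4 calls with the filter at log2 6 and 10 after quantile normalization. With 1 array left out they ranged over 537 to 1525, 0 to 95, 370 to 1507, 0 to 1, 1 to 2385 and 68 to 2650. The cause of these shifts was not tested.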
